A study of Gossypium hirsutum with 3 samples.

Results

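The genes described here are 8 MYB genes of upland cotton, out of 11143 genes on the array. MYB2 (GhAF034130), MYB3 (GhAF034131), MYB4 (GhAF034132), MYB5 (GhAF034133), MYB6 (GhAF034134) and MYB109 (GhAJ549758) were put on the array by the study as genes with known expression in young fiber. Contig3648 and Contig14561 are assembled cDNA sequences that the study matched to MYB genes of Arabidopsis, and they were chosen by their measured ratios on these same arrays. All 8 were also grouped with earlier results of these data known, so that every ratio between the RNAs below is a description of the members and no p is given for any of them. The sources used here do not say which repeats the proteins of the 2 contigs hold, and the match of Contig3648 to a MYB gene was weak.

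MYB proteins are transcription factors that bind DNA through repeats of the MYB domain, and the R2R3 type carries a pair of these repeats. In the leaf hairs of Arabidopsis, an R2R3 protein (GLABROUS1) acts in a complex with a basic helix-loop-helix protein and the WD40 repeat protein TTG1 to switch on GLABRA2, and small MYB proteins with a single repeat such as CAPRICE compete with it. Cotton fibers are hairs of the ovule epidermis. MYB2 is the cotton relative that can stand in for GLABROUS1 in Arabidopsis, and MYB109 is expressed in fiber initials.

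The measurements were made on 3 arrays with red and green dyes. Each array held cDNA of fiber initials at 1 dpa (1 day post anthesis, counted from flower opening) and cDNA of whole ovules of the same age from field grown plants. The methods describe the RNA as polyribosomal, the labels as total RNA. The initials were shaken off frozen ovules, and the ovules still carried theirs, so that the comparison is of initials with a mixture that includes them. In such bulk RNA, fewer cells that express a gene and less of its RNA per cell cannot be told apart.

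Which RNA was fiber is not settled by the labels and the codes of the arrays. The spots carry RNA codes, green SP2A and red SP1A on array 1, green SP1E and red SP2A on array 2, and green SP2C and red SP1F on array 3. By the labels, green was the fiber dye on arrays 1 and 2 and red was on array 3, so that SP2A is called fiber on array 1 and ovule on array 2. Arrays 1 and 2 have the same dyes by the labels, yet their log2 ratios of red over green across 11081 genes had a correlation of -0.58. Turned by the codes, arrays 1 and 2 had a correlation of 0.58, arrays 1 and 3 of 0.52 and arrays 2 and 3 of 0.81. Each r runs across genes, and genes are no independent replicates. The values below are therefore given as SP2 RNA over SP1 RNA. By the label of array 1 this is fiber over ovules, and by the labels of arrays 2 and 3 every sign turns. SP2A on arrays 1 and 2 may be the same extract, so that n = 3 counts arrays and the spread may be partly technical. The methods state that each tissue had 3 biological replications, collected on different days. How the shared code SP2A relates to these is not given.

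The signals of these genes were above background with few exceptions, but not all were bright. The median background-subtracted signal of all gene spots was 249 in green and 310.5 in red on array 1, 213.2 and 269.9 on array 2, and 182.2 and 130.5 on array 3. MYB4 in both RNAs, and MYB5 and Contig14561 in the SP2 RNA, averaged below the median of their dye on every array. Among the negative controls, the SD in green was 101.7 on array 1, against 5.845 and 5.324 on arrays 2 and 3. Green held the SP2 RNA on array 1, so that dim SP2 signals there are less certain. The part of this spread in the lower correlations of array 1 was not tested. The 8 genes had 21 probes, which are different oligonucleotides, in 25 spots. All 21 passed the filter on dim probes, which asked for a signal above background in either dye on at least 2 arrays, and none was saturated. The marker genes that follow were chosen with earlier results of these data known, so that they describe the contrast and cannot check it. GhFDH, a FIDDLEHEAD-like gene of the epidermis, had a mean log2 ratio of 1.17 ± 0.38 (SE, n = 3) and was called higher in the SP2 RNA. GhACY, an acetyltransferase gene, averaged 0.96 ± 0.85, with -0.73, 1.84 and 1.78 on arrays 1, 2 and 3, and was not called. Nor were GhRDL (0.37) and GhSCP (-0.15), a gene known from older, elongating fiber, and both had saturated spots. The genes of dividing cells, 3 of 3, were called lower in the SP2 RNA, against 8.31% of all genes tested. Their mean log2 ratios were -3.33 for topoisomerase II, -2.28 for histone H2A and -2.26 for histone H4. The SP1 signal of histone H4 was saturated in 1 probe on 2 arrays, so that its value is a limit. The part of dividing cells in the MYB ratios was not tested.

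**Figure D1:**
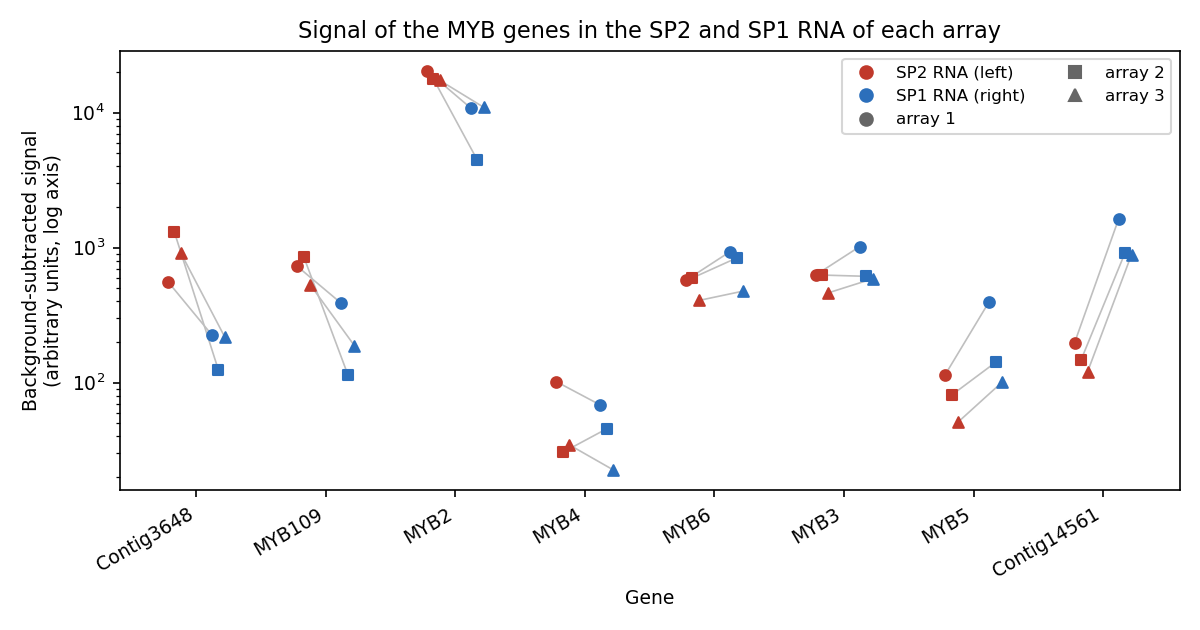
Background-subtracted signal (log axis, not normalized between dyes) of the 8 MYB genes, averaged over the probes of each gene, in the SP2 RNA (red, left) and the SP1 RNA (blue, right). Circles, squares and triangles are arrays 1, 2 and 3, and a line joins the signals of 1 array. Contig3648, MYB109 and MYB2 were brighter in the SP2 RNA on each array, and MYB6, MYB5 and Contig14561 in the SP1 RNA.

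Contig3648, MYB109 and MYB2 had positive log2 ratios on all 3 arrays, MYB3, MYB5, MYB6 and Contig14561 negative ones, and MYB4 was near 0. The mean log2 ratios of the 8 genes ran between -2.53 and 1.78. The median over the 8 was -0.34, against 0.04 over all genes tested. In a limma fit over all genes, with p adjusted by Benjamini-Hochberg, 6 of the 8 were called changed at 0.05, 2 higher (Contig3648 and MYB109) and 4 lower (MYB3, MYB5, MYB6 and Contig14561) in the SP2 RNA. Of all 11081 genes tested, 12.3% were called, 3.95% higher and 8.31% lower. The study's own threshold, a change of 2-fold or more and a p before adjustment of 0.05 or less, was passed by 5 of the 8, against 6.46% of all genes. Contig3648 and Contig14561 were selected on this contrast and the 8 genes were grouped with it known, so that nothing is read from the difference between these shares. Of the 8 genes, 7 had 1 sign on all 3 arrays, against 44.0% of all genes tested.

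**Figure D2:**
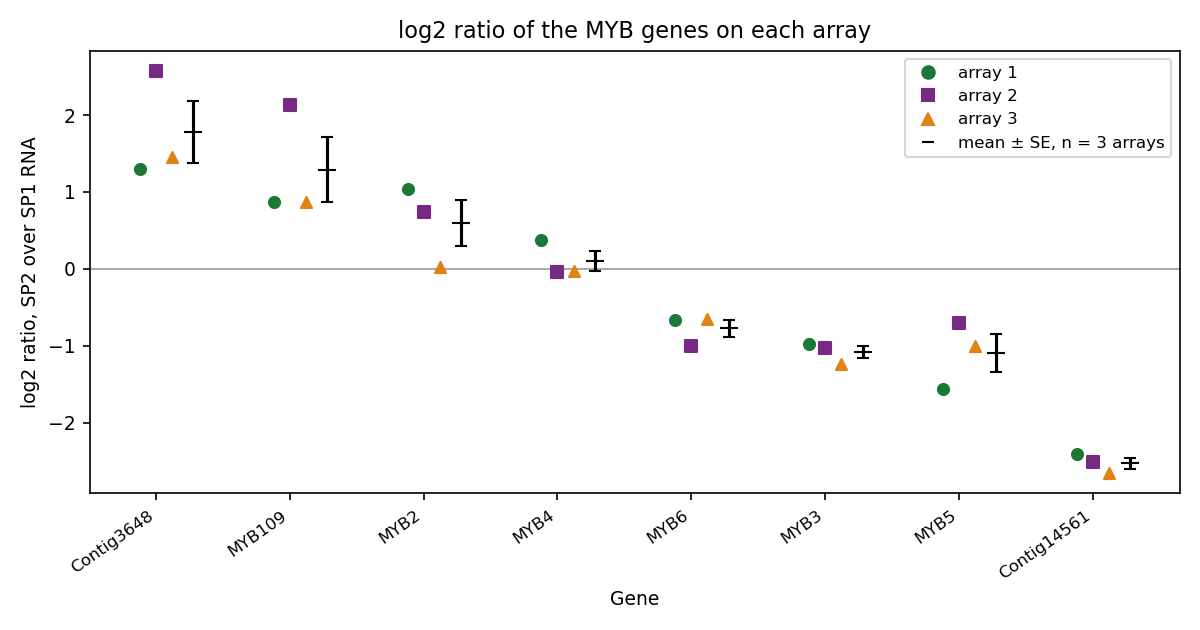
Log2 ratio of SP2 over SP1 RNA of the 8 MYB genes after normalization, on arrays 1 (circles), 2 (squares) and 3 (triangles). Bars give the mean ± SE over the 3 arrays. Contig3648 and MYB109 lie highest, on array 2 in particular, and Contig14561 lies lowest with nearly equal values on the 3 arrays.

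Contig3648 had the highest ratio of the 8 genes and the 6th highest of all 11081. Its signal averaged over 3 probes was 561.2, 1308 and 914.9 in the SP2 RNA of arrays 1, 2 and 3, against 225.7, 124.4 and 217.4 in the SP1 RNA. Before normalization between dyes, the lowest of these SP2 averages was above the highest SP1 average. The share of all genes with no such overlap is not given here. After normalization its log2 ratios were 1.30, 2.58 and 1.46, with a mean of 1.78 ± 0.40 (SE, n = 3), or 3.43-fold. The 3 probes averaged 1.68, 1.60 and 2.05, and all 9 values of a probe on an array were positive. The SD of 0.24 over the probes was smaller than that of 0.70 over the arrays, so that its size varied with the array more than with the oligonucleotide.

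MYB109 stood at the 52nd highest ratio. Its signal averaged over 3 probes was 726.8, 852 and 530.6 in the SP2 RNA, against 386.4, 114.4 and 188.3 in the SP1 RNA of arrays 1, 2 and 3. Before normalization between dyes these averages did not overlap, a trait whose share over all genes is not given here. The signals of probe 3 did overlap. Its SP2 signal was 182.6 on array 3 and its SP1 signal 188.6 on array 1. Its log2 ratios were 0.88, 2.13 and 0.87, with a mean of 1.29 ± 0.42 (SE, n = 3; 2.45-fold). All 9 values over its 3 probes were positive, from 0.43 on probe 2 of array 1 to 2.38 on probe 4 of array 2. The probes averaged 1.09, 1.21 and 1.57, with an SD of 0.25. Over 10268 genes with several probes, this SD had a median of 0.14 and an upper quartile of 0.24. Genes of like ratio were not compared. On array 2 the ratio of MYB109 exceeded the mean of arrays 1 and 3 by 1.26, and that of Contig3648 by 1.20.

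Array 2 is the only array with the SP2 RNA in red. The SP1 code differs on every array, so that a dye effect and a difference between extracts cannot be told apart. Over all genes tested, the same excess on array 2 had a median of -0.01 and quartiles of -0.20 and 0.23. Over the 438 genes called higher its median was 0.22 with an upper quartile of 0.44, and GhFDH had 1.03. Among the genes with negative ratios it was small for Contig14561 (0.02) and MYB3 (0.08), and 0.57 for MYB5 and -0.34 for MYB6. With both dye orientations weighted equally, the mean was 1.502 for MYB109 and 1.976 for Contig3648. Without array 2 the means were 0.87 for MYB109 and 1.38 for Contig3648, and without array 1, when MYB109 was not called, 1.4997 and 2.02. Each of these fits rests on 2 arrays.

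MYB2 was the brightest of the 8 genes in signal, although signals of different probes cannot be ranked as levels. Its 1 probe, in 3 spots, gave 20480, 17810 and 17350 in the SP2 RNA and 10800, 4445 and 10950 in the SP1 RNA of arrays 1, 2 and 3. The SP1 signal of array 2 was less than that of the other arrays. Before normalization between dyes, no SP1 signal reached the lowest SP2 signal. The share of all genes with such a separation is not given here. Repeat spots agreed closely, with SDs of the log2 ratio of 0.06, 0.02 and 0.02. After normalization the ratios were 1.04, 0.74 and 0.02, with a mean of 0.60 ± 0.30 (SE, n = 3; 1.52-fold), and MYB2 was not called. For MYB2 the normalization set the size. The ratios as deposited, with no correction between dyes, were 0.93, 2.00 and 0.66 once turned by the codes, a mean of 1.20, and centring each array on its median gave 1.06. Without array 3 the mean was 0.89 and MYB2 was called, but this call rests on arrays 1 and 2 only, which share the code SP2A.

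Contig14561 had the lowest ratio of the 8 genes and the 30th lowest of all. Its signal over 4 probes was 197.5, 147.5 and 120.2 in the SP2 RNA, against 1631, 918.9 and 890.6 in the SP1 RNA of arrays 1, 2 and 3. The SP1 signals were several times the SP2 signals on every array. Its log2 ratios of -2.41, -2.52 and -2.66 gave a mean of -2.53 ± 0.07 (SE, n = 3), so that the SP1 RNA held 5.77-fold more. The SD over arrays was 0.12, against a median of 0.24 over all genes tested. The probes differed far more than the arrays did. Probes 2, 3 and 4 averaged -2.41, -3.19 and -3.16, while probe 1 averaged -1.36. The SD over the 4 probes was 0.86, against a median of 0.14 over 10268 genes with several probes. Nearly all of those genes had ratios nearer to 0, and genes of like ratio were not compared. Probe 1 was also the dimmest, with 48.31, 60.62 and 44.5 in the SP2 RNA and 117.4, 195.9 and 132.2 in the SP1 RNA, and its SP2 signal was above background on 2 arrays only. The part of its low signal in its smaller ratio was not tested.

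**Figure D3:**
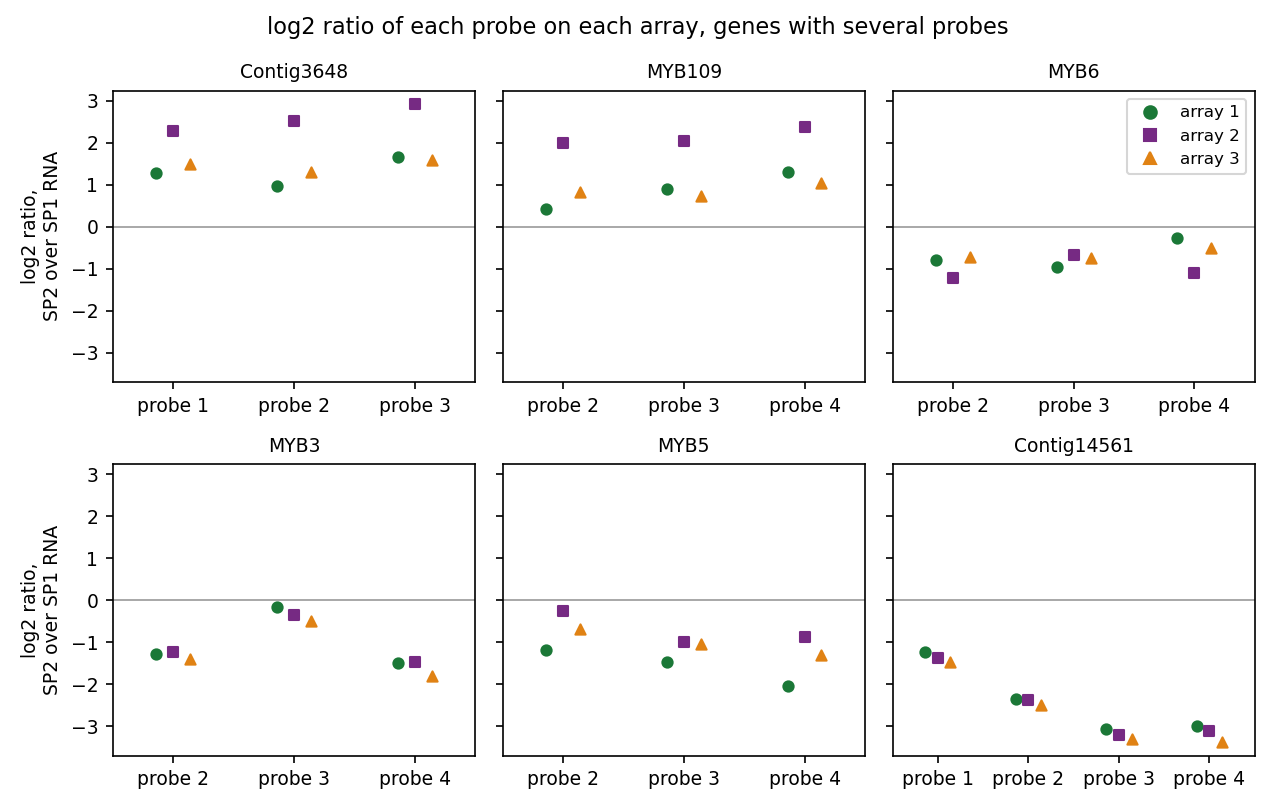
Log2 ratio of SP2 over SP1 RNA of each probe of the 6 genes with several probes, on arrays 1 (circles), 2 (squares) and 3 (triangles). The probes of Contig3648 and MYB109 are all above 0, those of the other genes all below 0, and probe 3 of MYB3 and probe 1 of Contig14561 lie nearer to 0 than the other probes of their gene.

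MYB3 had log2 ratios of -0.98, -1.03 and -1.23, with a mean of -1.08 ± 0.08 (SE, n = 3), 2.11-fold more in the SP1 RNA. This mean joins probes that disagreed in size. Probes 2 and 4 averaged -1.31 and -1.59, and probe 3 averaged -0.34. Probe 3 was the brightest, with 1547, 1694 and 1241 in the SP2 RNA and 2031, 1334 and 1323 in the SP1 RNA, and on array 2 its signal before normalization was higher in the SP2 RNA. Probe 4 had 196.3, 106.6 and 77.91 in the SP2 RNA against 640.9, 296.4 and 263.8 in the SP1 RNA. The 3 probes kept their order on each array, and with the median of the probes in place of the mean MYB3 had -1.31.

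MYB5 was dim. Its signal averaged 114.2, 80.81 and 51.03 in the SP2 RNA, against 397.5, 141.5 and 100.9 in the SP1 RNA of arrays 1, 2 and 3. The signals of the RNAs overlapped between arrays but not within any array. The log2 ratios were -1.56, -0.71 and -1.01, with a mean of -1.09 ± 0.25 (SE, n = 3; 2.13-fold more in the SP1 RNA). All 9 values were negative, and the ratio was farthest from 0 on array 1.

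MYB6 had the smallest change among the genes called. Its signal was 573.7, 597.4 and 406.8 in the SP2 RNA and 935, 838.7 and 476.9 in the SP1 RNA of arrays 1, 2 and 3. Each array had less signal in the SP2 RNA, with overlap between arrays. The log2 ratios were -0.67, -0.998 and -0.65, with a mean of -0.77 ± 0.11 (SE, n = 3; 1.71-fold more in the SP1 RNA), below the 2-fold threshold of the study. Its probes averaged -0.91, -0.78 and -0.63, with an SD of 0.14, near the median of 0.14 over all genes with several probes. MYB6 was not called without array 2 (-0.66, from 2 arrays).

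MYB4 was barely above background. Its 1 probe, in 3 spots, gave 101.7, 30.53 and 34.62 in the SP2 RNA and 68.26, 45.69 and 22.56 in the SP1 RNA. It exceeded background on 1 of 3 arrays for the SP2 RNA and on 2 of 3 for the SP1 RNA. Its log2 ratios were 0.37, -0.04 and -0.03, with a mean of 0.10 ± 0.14 (SE, n = 3), and the mean turned to -0.03 without array 1. The deposited ratios, with no offset and no correction between dyes, were farther from 0. Turned by the codes they were 0.575, -0.5835 and 0.6253. A difference in MYB4 was thus not detectable at these signals, which does not show that it was equal in the RNAs.

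**Figure D4:**
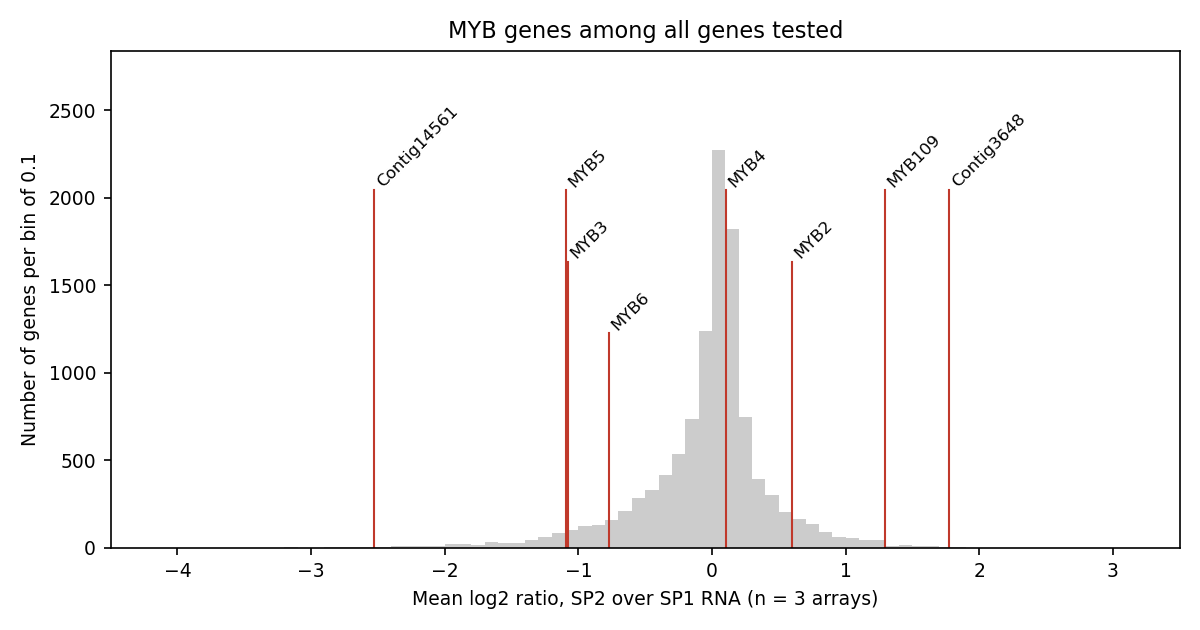
Number of genes (bins of 0.1) by mean log2 ratio of SP2 over SP1 RNA over 3 arrays, with the 8 MYB genes as red lines. MYB4 lies in the bulk of the genes, Contig3648 and MYB109 in the upper tail and Contig14561 in the lower tail, between -2.53 and 1.78.

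In the order of their mean ratios the genes were Contig3648, MYB109, MYB2, MYB4, MYB6, MYB3, MYB5 and Contig14561. Neighbours in this order overlapped in the range of their 3 ratios, with exceptions at MYB4 and MYB6 and at MYB5 and Contig14561, where a gap lay between the ranges. The means of MYB3 and MYB5 (-1.08 and -1.09) were nearly equal. Contig14561 was below every other member on each array.

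By the labels, with the arrays turned as they place the fiber RNA, the ratios of fiber over ovules opposed each other between array 1 and the other arrays. They were 0.88, -2.13 and -0.87 for MYB109 on arrays 1, 2 and 3, with a mean of -0.71 ± 0.87 (SE, n = 3). Contig3648 had 1.30, -2.58 and -1.46, and Contig14561 had -2.41, 2.52 and 2.66. MYB4, whose normalized ratios were near 0, was the gene with 1 sign in this reading. None of the 8 genes was called in this reading. Of all 11081 genes, limma called 0, while 538 had a p under 0.05 before adjustment.

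Other genes that the study described as MYB-like numbered 5, taken from a table it drew up partly on these samples. Of these 5, 3 were called lower and 0 higher in the SP2 RNA, against 8.31% and 3.95% of all genes tested. Contig5962, a MYB-related gene, had log2 ratios of -2.62, -2.14 and -1.16, and Contig7886, similar to a MYB-like gene of Antirrhinum, had -2.69, -1.68 and -1.28 from 1 probe. Contig2737 had -1.76, -1.16 and -1.07. In all 3 genes the ratio was farthest from 0 on array 1. Contig17592 had a mean of -0.48 ± 0.12 (SE, n = 3) and Contig4608, similar to a MYB gene of rice, of 0.24 ± 0.11, and neither was called. The array also held a gene named COTMYBA, which was picked from its name after its values had been seen. Its log2 ratios were -1.14, -0.57 and -0.48, with a mean of -0.73 ± 0.20, and its probes averaged -0.06, -0.91 and -1.22.

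The genes of the trichome pathway around MYB2 numbered 7 with GhRDL, an RD22-like gene that a MYB2 relative activates, and 2 of them were called, against 12.3% of all genes tested. Contig15274, similar to the homeodomain gene GLABRA2, had 0.70, 1.61 and 1.35 on arrays 1, 2 and 3. The CAPRICE-like gene Contig16590 had -1.26, -0.68 and -1.19, but its probes differed in sign. Probe 1 averaged 0.25, against -1.65, -1.94 and -0.82 for probes 2, 3 and 4. The other GLABRA2-like gene, Contig2110, had -0.05, 1.09 and 1.32, with array 1 apart from the others. The TTG1-like gene Contig6466 averaged 0.48 ± 0.15 (SE, n = 3), the TTG1-like singleton 0.43 ± 0.28 and the CAPRICE-like Contig17149, of which 2 of 4 probes passed the filter, 0.20 ± 0.07. GhRDL averaged 0.37 ± 0.19 and was saturated on all 3 arrays for the SP2 RNA, so that its size is uncertain. The study chose most of these genes partly on these samples.

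**Figure D5:**
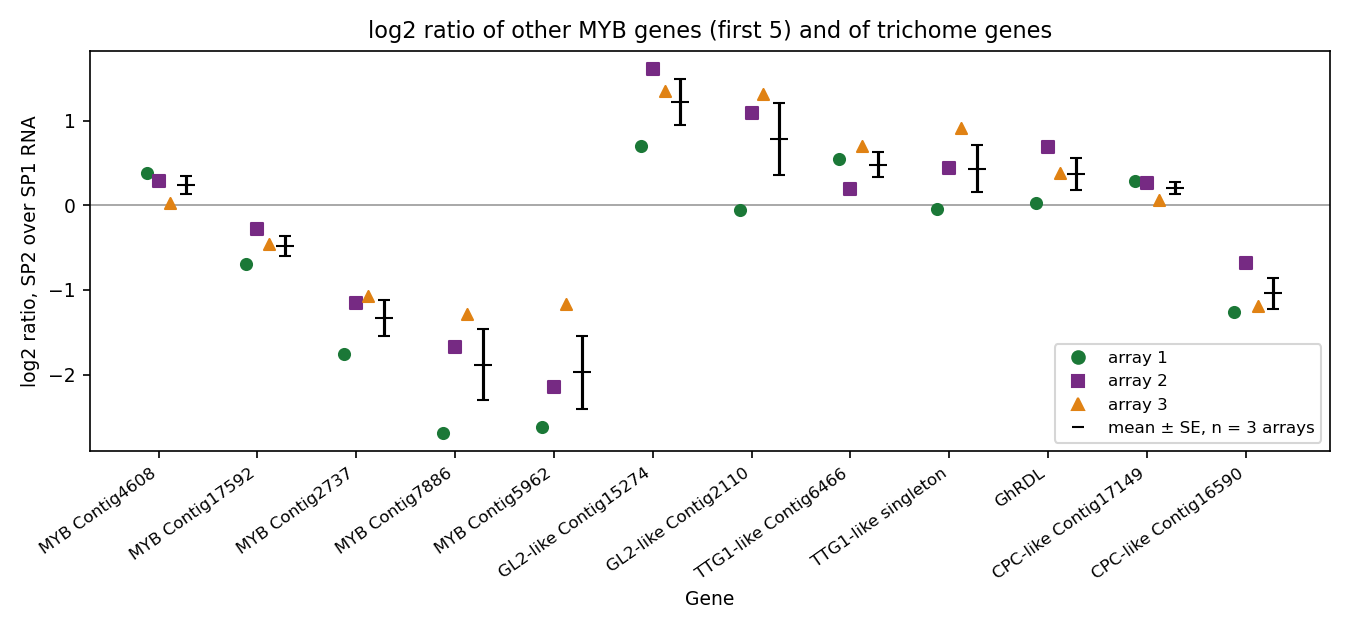
Log2 ratio of SP2 over SP1 RNA of the 5 other MYB-like genes (left) and the 7 trichome genes (right), on arrays 1 (circles), 2 (squares) and 3 (triangles), with bars for the mean ± SE over the 3 arrays. Contig2737, Contig7886 and Contig5962 lie below -1 on each array, and Contig15274 lies between 0.70 and 1.61.

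The genes with the ratios most like those of a member over the 3 arrays, by Euclidean distance among 11047 other genes without saturated spots, were as follows. For MYB109 they were Contig16488 (distance 0.21), Contig12298, described as ribosomal protein L36 (0.36), and Contig14911, a blue copper protein gene (0.39). Contig16488 had ratios of 0.93, 1.94 and 0.91, and its excess on array 2 follows from its choice by likeness to MYB109. For Contig3648 they were Contig13206, similar to RIN4 of Arabidopsis (0.58), the GTP-binding protein gene Contig85 (0.58) and Contig2638 (0.59). No gene was as near to Contig3648 as the nearest was to MYB109. For Contig14561 they were a singleton (0.35), Contig17370 (0.39) and TMIRS_068_F03.F (0.47). With 3 arrays such likeness is a description of size and array pattern only.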

How the data were processed

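The deposited scanner files hold mean pixel intensity of each spot and of its local background, from Agilent Feature Extraction (version not given in the sources used here), with no background subtraction or dye normalization. A deposited flag of 0 or 1, of other kind, marks green spots well above background. In the deposited value table the authors gave log2 ratios of red over green after background subtraction, neither centred nor turned. It equalled the recomputed ratio at 42034 of 42034 spots (tolerance 1e-06).

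Each array had 44290 spots, 2256 of them controls. Background was corrected by normexp with an offset of 50, and ratios were normalized by loess within each array on gene spots (limma 3.58.1, R 4.3.3). The spots of a probe, and then the probes of a gene, were averaged. For red, the background limit was the negative controls' median plus 2.6 robust SD. Of 40372 probes 38713 were kept, and 11081 genes were tested against 0 with lmFit and eBayes over the 3 arrays, with Benjamini-Hochberg adjustment. The functions were tested on simulated data. SEs are the SD over arrays divided by the root of n. Arrays were turned by the RNA codes of the spots. The number of arrays limits the precision.

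The members, gene lists and naming rule (the members, the other MYB-like genes, the trichome genes, and the 3 nearest genes of MYB109, Contig3648 and Contig14561) were chosen with earlier results of these data known. So were the fiber markers and the genes of dividing cells. The study's 10 dpa arrays are not used here. None of the 8 members matched a RefSeq accession, and probe sequences and genome positions are not used here.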

Additional observations from a re-analysis of the deposited data

How the results depend on the processing

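With the arrays turned by the codes, the direction of 7 of the 8 genes was the same under every alternative run. Runs that could turn it were background subtraction, median centring, the deposited ratios, no filter or a stricter filter on dim probes, and the median of probes. The others were an ordinary test with no sharing of variance between genes, a dye term and each array left out. Arrays 1 and 2 were also averaged as 1 replicate (added after seeing the data). The ordinary test, dye term, averaging and array omission could not turn the 7 genes, since each had 1 sign on every array. MYB4 turned to -0.035 with median centring and ranged between -0.034 and 0.17 when an array was left out, lowest without array 1, and had no value under the stricter filter. Turned by the labels, the means were -0.71 for MYB109, -0.91 for Contig3648, 0.43 for MYB3, 0.051 for MYB5, 0.33 for MYB6 and 0.92 for Contig14561. Of the 8 genes, 6 were called, against 2 with median centring (MYB3 and Contig14561) and 2 with the deposited ratios (Contig3648 and Contig14561). With the ordinary test 0 were called, by the labels 0, and between 5 and 7 when an array was left out. Fits with an array left out, or with arrays 1 and 2 averaged, rest on 2 values per gene. The count of other MYB-like genes called was 3, against 0 with median centring, 1 with the deposited ratios, 0 with the ordinary test and 0 by the labels. That of the trichome genes was 2, against 0, 0, 0 and 0 in these settings, and 5 with arrays 1 and 2 averaged. The cause of these changes was not tested. Of all genes, 1359 were called, 329 with median centring, 246 with the deposited ratios, 2253 (20.3%, against 12.3%) with arrays 1 and 2 averaged and 2 with the ordinary test (1712 at an unadjusted p under 0.05).

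A random block for the shared code SP2A was not run, since limma returned no correlation for it. The test was paired within each array, since each ratio sets the SP2 RNA against the SP1 RNA of its own array. No pairing between groups was possible because the 3 arrays form 1 group with no replicate numbers shared between groups. MYB4 and MYB5 were dim, which limits the precision of their ratios. With background-subtracted signals and no offset, MYB5 had -1.36, against -1.09, and MYB4 had 0.09, against 0.10.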
